A study of Arabidopsis thaliana with 2 samples.

Results

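WRKY75, the transcription factor gene targeted by RNA interference (RNAi), and 4 further WRKY genes were listed as lower in the leaves of RNAi plants. The 5 loci, WRKY75 (AT5G13080), WRKY53 (AT4G23810), WRKY6 (AT1G62300), WRKY46 (AT2G46400) and WRKY33 (AT2G38470), were chosen by locus, with earlier results of these data known, and looked up in the deposited table of transcripts lower in the RNAi plants. Each was listed there through 1 transcript model, and together they are 5 of 2159 loci in the deposited tables of lower and higher transcripts. Since membership required a place in the table of lower transcripts, the lower direction of the 5 and a difference of at least 2-fold are given by the choice and are no finding.

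Polyadenylated RNA was sequenced from the third leaf and the leaf after it of *Arabidopsis thaliana* plants aged 28 days. There was 1 library of wild-type Col-0 and 1 of WRKY75RNAi plants in the same Col-0 background, in which a double-stranded RNA transgene silences WRKY75. The sources used here do not give the promoter or target stretch of the transgene, the number of independent lines or whether plants were pooled. Each genotype is represented by a single library, so the spread between plants is unknown and no difference could be tested, and every interval below is an exact 95% interval that covers counting error only.

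WRKY proteins are plant transcription factors that bind DNA through a zinc finger domain named after its conserved amino acids, and they recognise the W-box, a short DNA element with the core TTGAC. Many WRKY genes are themselves induced by pathogens, salicylic acid, oxidative stress and ageing, and many carry W-boxes in their own promoters, so that members of the family can regulate one another. In leaves WRKY75, WRKY53 and WRKY6 are known for roles in senescence, while WRKY46 and WRKY33 are best known from defence against bacteria and against necrotrophic fungi.

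The promoter windows of the 5 genes are shown because the W-box is the element that these factors themselves bind. That the 5 transcripts were all lower was fixed by their choice and is no reason to look for a shared element. Each window runs 5′ to 3′ on the strand of the gene, from 250 bases before to 50 bases after the start of the gene in the RefSeq annotation of TAIR10.1. Capitals mark TTGAC, or GTCAA where the core lies on the other strand.
WRKY75, chr5:4151152-4151451, minus strand: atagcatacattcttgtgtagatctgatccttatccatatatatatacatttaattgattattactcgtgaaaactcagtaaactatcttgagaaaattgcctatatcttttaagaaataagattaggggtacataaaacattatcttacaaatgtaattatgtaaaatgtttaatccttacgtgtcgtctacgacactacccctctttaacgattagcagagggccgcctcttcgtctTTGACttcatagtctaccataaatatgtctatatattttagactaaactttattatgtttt
WRKY53, chr4:12393933-12394232, minus strand: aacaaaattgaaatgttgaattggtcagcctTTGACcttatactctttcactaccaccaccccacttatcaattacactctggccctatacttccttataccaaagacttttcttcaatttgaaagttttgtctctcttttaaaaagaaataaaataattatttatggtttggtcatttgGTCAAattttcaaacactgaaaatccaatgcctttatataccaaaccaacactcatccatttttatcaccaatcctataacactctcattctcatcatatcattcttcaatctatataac
WRKY6, chr1:23019445-23019744, minus strand: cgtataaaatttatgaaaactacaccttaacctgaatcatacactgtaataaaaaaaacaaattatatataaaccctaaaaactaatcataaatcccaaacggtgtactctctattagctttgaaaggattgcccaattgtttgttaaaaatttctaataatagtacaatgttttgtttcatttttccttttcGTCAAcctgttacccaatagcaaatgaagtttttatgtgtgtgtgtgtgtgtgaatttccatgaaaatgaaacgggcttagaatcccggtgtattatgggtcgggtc
WRKY46, chr2:19044906-19045205, minus strand: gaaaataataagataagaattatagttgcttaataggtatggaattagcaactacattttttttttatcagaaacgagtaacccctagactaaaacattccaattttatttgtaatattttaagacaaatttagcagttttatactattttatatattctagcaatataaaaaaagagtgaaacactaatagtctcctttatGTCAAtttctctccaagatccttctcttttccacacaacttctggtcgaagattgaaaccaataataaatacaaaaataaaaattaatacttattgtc
WRKY33, chr2:16107985-16108284, plus strand: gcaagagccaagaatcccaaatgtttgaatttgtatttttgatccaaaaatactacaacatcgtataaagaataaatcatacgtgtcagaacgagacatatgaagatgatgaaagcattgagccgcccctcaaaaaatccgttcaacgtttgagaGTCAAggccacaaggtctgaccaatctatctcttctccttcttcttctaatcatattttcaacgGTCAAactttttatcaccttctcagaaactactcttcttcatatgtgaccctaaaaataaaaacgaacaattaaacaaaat

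The 5 windows held 7 matches to TTGAC, of which 5 lay on the strand opposite to the gene and 0 overlapped another match. WRKY53 and WRKY33 had 2 matches each, and WRKY75, WRKY6 and WRKY46 had 1 each. At least 1 match occurred in 50.5% of 27443 promoter windows of protein-coding genes and at least 2 in 17.7%, so that a single match is common. The single match of WRKY75 was the nearest to a gene start, at 11 bases before it, and that of WRKY53 at 219 bases before the start was the farthest. With the longer forms TTGACC and TTGACT, WRKY53 and WRKY33 kept 2 matches and WRKY75 kept 1, whereas WRKY6 and WRKY46 had 0. At least 1 longer form was present in 32.4% of all windows and at least 2 in 7.70%. A match describes the letters of the window and does not show that a factor binds there.

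**Figure D1:**
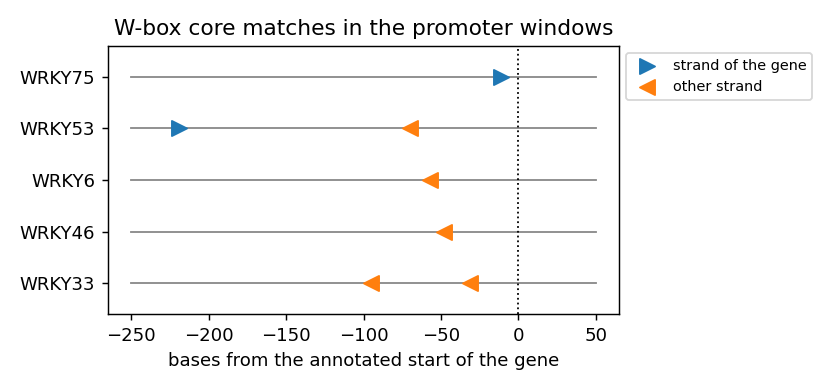
Positions of the TTGAC core in the promoter windows of the 5 WRKY genes. The x axis gives bases from the annotated start of the gene (dotted line), triangles point right for the strand of the gene and left for the other strand. All 7 matches lie before the start, and 6 of them lie within 100 bases of it.

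WRKY75, the silenced gene, is a small member of the family with a coding sequence of 145 codons, the shortest among the listed WRKY genes. It lies on chromosome 5 (4149738 to 4151201, minus strand, TAIR10.1) and its annotated transcript has 2 exons. There were 1699 reads (interval 1619 to 1782) on it in the wild-type library and 476 reads (434 to 521) in the RNAi library. In RPKM, that is reads per kilobase of the deposited gene length and per 1000000 reads of the library, these are 29.2 in wild type and 8.87 in WRKY75RNAi. The RNAi library thus held 30.4% of the wild-type level, a log2 ratio of -1.72 (interval -1.87 to -1.57). WRKY75 shared 0 of the 790 stretches of 21 bases in its transcript, the usual length of a small interfering RNA, with the annotated transcripts of any other locus on either strand. Its 6 closest relatives (WRKY12, WRKY13, WRKY24, WRKY43, WRKY45 and WRKY56) were all absent from the tables, which does not show that they were equal in both libraries. The sources used here do not say whether transcripts of the silencing transgene are counted among the WRKY75 reads.

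WRKY53, an early positive regulator of leaf senescence, was the most reduced of the 5. Its reads numbered 13557 in wild type and 3549 in WRKY75RNAi, or 203.5 and 57.9 RPKM, and 28.4% of the wild-type level was left (log2 ratio -1.81, interval -1.87 to -1.76). Its interval and that of WRKY75 overlapped, so counting error alone does not separate the 2 ratios. WRKY53 lies on chromosome 4 (12392370 to 12393982, minus strand) with 2 exons, and its last 341 bases overlap AT4G23800 (3xHMG-box2) on the opposite strand. That neighbour was also listed as lower, with 351 reads in wild type and 123 in WRKY75RNAi. Since no strand setting is given, reads in the overlap cannot be assigned to 1 of the genes. The neighbour's whole count in each library was small beside that of WRKY53.

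WRKY46, which acts in basal defence together with WRKY53 and WRKY70, belongs to the same group of the family as WRKY53. It had 10104 reads in wild type and 3219 in WRKY75RNAi, or 173.1 and 59.9 RPKM, which leaves 34.6% of the wild-type level (log2 ratio -1.53, interval -1.59 to -1.47). The gene lies on chromosome 2 (19043411 to 19044955, minus strand), has 3 exons and overlaps no annotated gene. Like WRKY75, it shared 0 stretches of 21 bases with the transcripts of other loci. With loci that do not overlap them, WRKY53 shared 32 of 1494 such stretches, WRKY6 13 of 2299 and WRKY33 5 of 2005. Of those of WRKY53, 28 were shared with WRKY41, which was also listed as lower.

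WRKY33, a substrate of MAP kinases that is needed for camalexin synthesis and for resistance to necrotrophic fungi, was the most abundant of the 5 transcripts in both libraries. It had 27580 reads in wild type and 9015 in WRKY75RNAi, or 277.5 and 98.5 RPKM, and 35.5% of the wild-type level was left (log2 ratio -1.49, interval -1.53 to -1.46). The intervals of WRKY33 and WRKY46 overlapped, whereas those of WRKY33 and WRKY75 did not. WRKY33 lies on chromosome 2 (16108235 to 16110766, plus strand) with 5 exons. A long non-coding RNA gene, AT2G08965, lies within it over 272 bases on the opposite strand, and AT2G38480 overlaps it by 26 bases at the other end, and neither was listed.

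WRKY6, a regulator linked to senescence and defence that also controls the phosphate exporter gene PHO1, was the least reduced. It had 2834 reads in wild type and 1170 in WRKY75RNAi, or 26.4 and 11.8 RPKM, which leaves 44.9% of the wild-type level (log2 ratio -1.16, interval -1.26 to -1.06). Its interval overlapped that of none of the other 4. Adding 5 RPKM to both libraries moved its log2 ratio to -0.90, inside 2-fold. The gene lies on chromosome 1 (23016569 to 23019494, minus strand), has 6 exons and overlaps no annotated gene. In bulk leaf RNA, fewer cells that express a gene and less of its RNA per cell cannot be told apart, here and for all genes above.

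**Figure D2:**
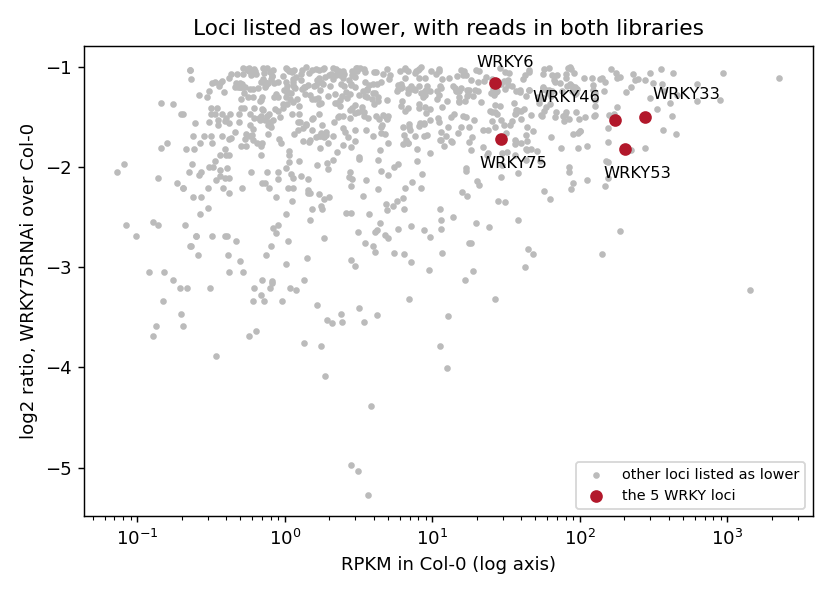
Loci whose most-read model was lower in WRKY75RNAi and had reads in both libraries (852 points), with the RPKM in Col-0 on a log x axis and the log2 ratio of RPKM on the y axis. The 5 WRKY loci (red) range from -1.16 to -1.81 near the median of -1.48, and WRKY33, WRKY53 and WRKY46 sit among the more abundant loci.

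Among the loci listed as lower the 5 were abundant, while their ratios were spread around the middle; neither was tested. By RPKM in wild type, WRKY33, WRKY53 and WRKY46 ranked 21, 29 and 35 among 930 loci whose most-read model was lower, and WRKY75 and WRKY6 ranked 180 and 192. The median of these loci in wild type was 2.79 RPKM. By ratio, starting from the most reduced, WRKY53 ranked 247, WRKY75 292, WRKY46 385, WRKY33 411 and WRKY6 690 of 852 loci with reads in both libraries. The median log2 ratio of the 5 was -1.53, beside -1.48 over the 852 loci. In absolute terms the 5 levels together were 472.6 RPKM smaller in WRKY75RNAi. The RPKM in WRKY75RNAi minus that in wild type was -178.9 for WRKY33, -145.6 for WRKY53, -113.2 for WRKY46, -20.3 for WRKY75 and -14.6 for WRKY6.

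The order of the levels differed between the libraries for neighbours with close values. In wild type it ran from WRKY33 over WRKY53, WRKY46 and WRKY75 to WRKY6. In WRKY75RNAi, WRKY46 at 59.9 RPKM (interval 57.9 to 62.0) stood beside WRKY53 at 57.9 (55.98 to 59.81), and these intervals overlap. WRKY75 at 8.87 RPKM (8.09 to 9.71) was below WRKY6 at 11.8 (11.2 to 12.5), but that order depends on the length used. The deposited length of WRKY75, 1410 bases, is 1.74 times its spliced length of 810 bases in TAIR10.1, against 1.04 to 1.19 times for the other 4. Over the spliced length WRKY75 was at 50.8 RPKM in wild type and 15.4 in WRKY75RNAi, above WRKY6 at 29.6 and 13.3. The deposited RPKM thus places WRKY75 lower beside the other members than RPKM over the spliced length does. The deposited lengths of the 5 were 88.7% (WRKY6) to 99.9% (WRKY53) of the genomic span of the transcript with its introns, and 96.3% for WRKY75. Which length fits the counted reads cannot be told, as the read counter is not given. The ratio of WRKY75 between the libraries does not depend on the length.

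**Figure D3:**
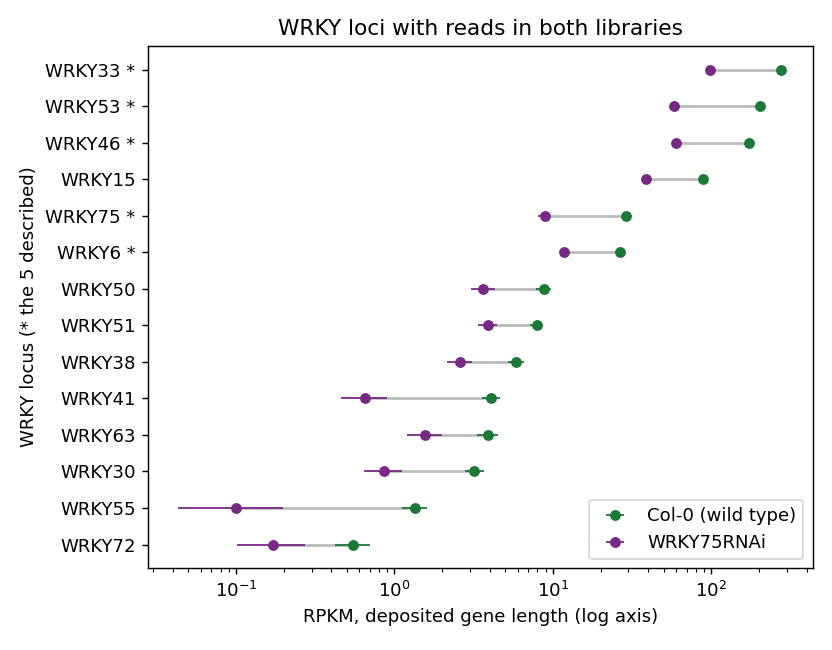
RPKM (log x axis, deposited gene length) of the 14 listed WRKY loci with reads in both libraries, in Col-0 (green) and WRKY75RNAi (purple), 1 library each, with bars for exact 95% counting intervals. WRKY75RNAi is below Col-0 at each of the 14, which the choice of loci fixes, and the 5 loci marked with an asterisk lie at 26.4 RPKM or more in Col-0.

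The wider family was followed through 72 loci with a WRKY name, all of which encode a WRKY domain. Of these, 15 were listed as lower (20.8%), 1 as higher and 56 not at all. Of 31475 transcript models that the authors ranked, 3.17% were selected as lower and 4.32% as higher. Counted per locus, as the family is, 3.08% of 27562 protein-coding loci were listed as lower and 4.17% as higher. Without WRKY75 the share of the family was 14 of 71 (19.7%). The 5 genes described above were taken from these 15, so they are no further evidence on the family. The listed WRKY transcripts summed to 834.2 RPKM in wild type and 289.7 RPKM in WRKY75RNAi, and the 5 genes made up 85.1% of the wild-type sum. With 15 of the listed loci selected as lower, the smaller sum is given by the selection. It is no total of the family, since the levels of the 56 loci not listed could not be read.

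WRKY proteins are divided by the number of their domains and the form of the zinc finger into groups I, II and III, with group II split further. Group III, to which WRKY53 and WRKY46 belong, had 7 of 13 loci listed as lower (53.8%) and 1 as higher. Group IIc, which holds WRKY75, had 4 of 18, group IIb with WRKY6 had 2 of 8, group I with WRKY33 had 1 of 12 and group IId had 1 of 7. In groups IIa and IIe, with 3 and 7 loci, 0 were listed, as was the case for 4 loci left unassigned. The group IIa genes WRKY18, WRKY40 and WRKY60 encode regulators of defence, and WRKY70 and WRKY54, the group III genes known as repressors of senescence, were likewise not listed. Groups were not tested against each other.

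**Figure D4:**
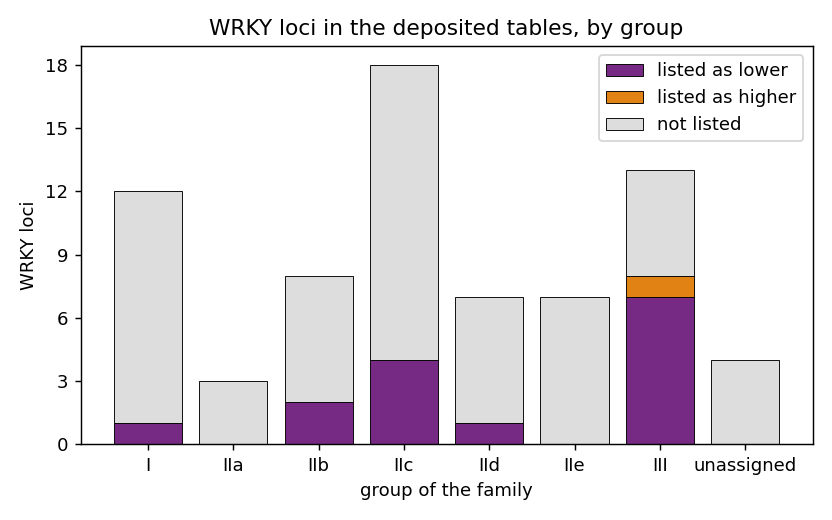
Number of WRKY loci (y axis) listed as lower, listed as higher or not listed, by group of the family (x axis). Group III has 7 of its 13 loci listed as lower and the only higher locus.

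The other group III genes listed as lower were less abundant than WRKY53 and WRKY46, and some were more strongly reduced. WRKY55, linked to senescence and salicylic acid, had 117 reads in wild type and 8 in WRKY75RNAi (log2 ratio -3.75, interval -4.996 to -2.72). WRKY41, a regulator of defence, had 251 and 37 reads (-2.64, interval -3.18 to -2.14), but 517 bases of it overlap AT4G11080 on the opposite strand. These 2 genes were the most reduced of the listed family loci with reads in both libraries. WRKY30, which responds to oxidative stress, had 211 and 52 reads (-1.90, interval -2.37 to -1.46). WRKY63, also named ABO3 and known from abscisic acid responses, had 168 and 62 reads (-1.32, interval -1.76 to -0.89). WRKY38, a repressor of basal defence, had 302 and 123 reads (-1.18, interval -1.49 to -0.87). The intervals of WRKY63 and WRKY38 reach inside 2-fold, and those of WRKY55, WRKY41 and WRKY30 do not. The higher gene of the group, WRKY67, had 0 reads in wild type and 7 in WRKY75RNAi, which is 2.53-fold higher against a floor of 3 reads in a library. Counting error in its 7 reads put the lower limit of its log2 ratio at 0.65, inside 2-fold. Its transcript shares 2 of 870 stretches of 50 bases (0.23%) with that of WRKY64, and only reads from those stretches cannot be assigned to 1 of the genes.

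In group IIc the other genes listed beside WRKY75 were WRKY50 and WRKY51, which act in the repression of jasmonate responses by salicylic acid, and WRKY71, a regulator of shoot branching. WRKY50 had 345 reads in wild type and 132 in WRKY75RNAi (log2 ratio -1.27, interval -1.57 to -0.97). WRKY51 had 456 and 206 reads (-1.03, interval -1.27 to -0.79), and the intervals of WRKY50 and WRKY51 both reach inside 2-fold. WRKY71 had 13 and 0 reads, 3.99-fold lower against the floor of 3 reads, and with counting error the upper limit of its log2 ratio was -1.49. Outside these groups, WRKY15, a group IId gene of growth and osmotic stress, was the most abundant listed WRKY transcript besides the 5, with 5270 and 2134 reads or 88.6 and 38.98 RPKM (-1.18, interval -1.26 to -1.11). WRKY72, a group IIb gene of basal immunity, had 62 and 18 reads (-1.66, interval -2.51 to -0.89), and its interval also reaches inside 2-fold.

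**Figure D5:**
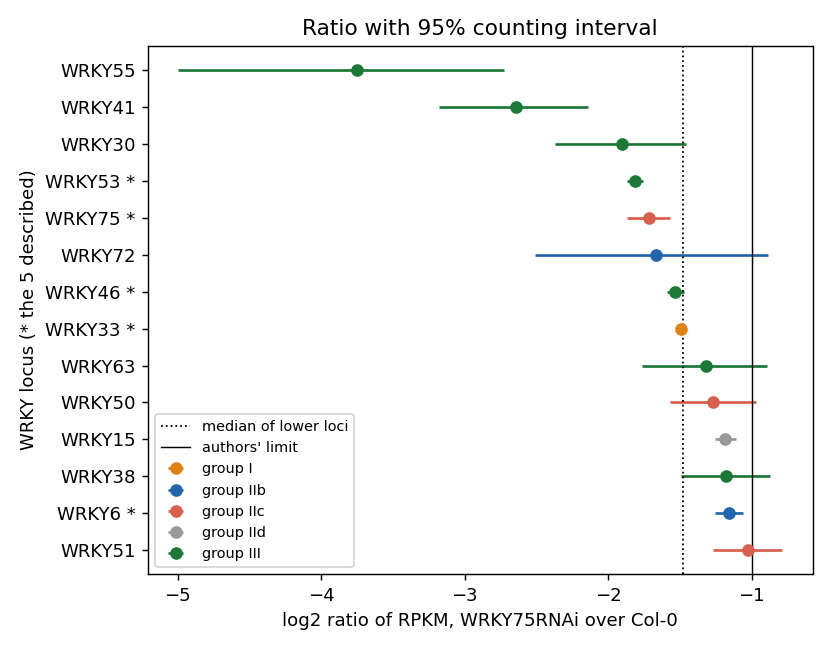
Log2 ratio of RPKM in WRKY75RNAi over Col-0 (x axis) for the 14 listed WRKY loci with reads in both libraries, coloured by group, with exact 95% counting intervals. The solid line is the authors' limit of 2-fold and the dotted line the median of -1.48 over the 852 lower loci with reads in both libraries. WRKY55 and WRKY41 lie farthest left with wide intervals, and the intervals of WRKY72, WRKY63, WRKY50, WRKY38 and WRKY51 cross the limit.

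The median log2 ratio of the 15 lower WRKY loci was -1.53 with WRKY71 at its bound, beside -1.48 over all 930 lower loci with those at 0 reads also set to the floor. Over loci with reads in both libraries it was -1.51 for the 14 WRKY loci and -1.48 for all 852. In their promoter windows, 12 of the 15 lower WRKY loci (80.0%) had at least 1 TTGAC and 6 at least 2. Among the 56 WRKY loci that were not listed, 31 (55.4%) had at least 1 and 13 (23.2%) at least 2. The order was reversed for at least 3 matches, with 1 of the 15 lower (6.67%) and 6 of the 56 not listed (10.7%). The 12 include all 5 genes described above, and of the other 10 lower WRKY loci 7 (70%) had at least 1. Among the 850 protein-coding loci listed as lower, 64.8% had at least 1 and 35.2% at least 2. These shares are descriptions and were not tested.

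The functional terms that the lower WRKY genes share were read from the authors' deposited table, which holds 93 ontology terms. Its largest adjusted p was 0.049, from a test that the sources used here do not give. Terms that the genes share outside these 93 are therefore not seen, and the counts below do not describe their whole annotation. In the authors' deposited table, WRKY53 stood under 23 terms, WRKY33 under 17, WRKY6 under 10, WRKY46 under 8 and WRKY75 under 7. Of the 93 terms, all 5 stood together under 4, response to stimulus and 3 general terms of biological regulation. The most specific term that joins WRKY53, WRKY6, WRKY46 and WRKY33 is response to chitin, a component of fungal cell walls. According to the authors' deposited table this term held 24 of 857 lower genes against 104 of 27594 background genes, with an adjusted p of 3.64e-12, and WRKY75 was not among them. The columns of that table have no headers, so what they hold was inferred from the values. Only WRKY53 stood under innate immune response, and WRKY33 was the single WRKY gene under defense response to fungus. Annotation is based on earlier work, so a term that lacks a gene does not speak against a role of that gene.

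Proteins and targets of the same network were counted from fixed lists, beside which 3.08% of all protein-coding loci were listed as lower and 4.17% as higher. These lists, and those of targets and handling genes below, were chosen with earlier results of these data known. Their shares can reflect that choice, are no independent evidence on the network and were not tested. Of 10 genes of MAP kinase cascades, MPK11 (AT1G01560) was listed as lower, with 2458 and 786 reads (log2 ratio -1.53, interval -1.64 to -1.41), and 9, among them MPK3, MPK4 and MPK6, were not listed. VQ proteins are small partners of WRKY factors. Of 34 loci found by words for them, which also took in MPK4 through its description, 6 were listed as lower and 1, AT3G18360, as higher on 2 and 12 reads. AT4G20000 had 226 and 45 reads (-2.21, interval -2.70 to -1.74), AT1G21326 173 and 26 (-2.61, interval -3.27 to -2.01), AT1G17147 357 and 104 (-1.66) and AT1G78410 384 and 128 (-1.47). AT4G37710 had 71 and 29 reads, and AT1G21320, annotated as a nucleotide-binding protein whose description also names a VQ domain, had 43 and 12 reads. SIB1, SIB2 and MKS1, the VQ proteins known to bind WRKY33, were not listed.

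Of 18 genes known as targets or partners of the 5 factors, 4 were listed as lower and 0 as higher (3.08% and 4.17% over all protein-coding loci). These were the isochorismate synthase gene ICS1, a target of WRKY75, at 36.7% of the wild-type level, PBS3, a target of WRKY46 in salicylic acid synthesis, at 34.5%, the receptor kinase gene FRK1, a target of WRKY6, at 44.0%, and the ethylene synthesis gene ACS2, a target of WRKY33, at 45.3% on 84 and 35 reads. The catalase gene CAT2, the phosphate transporter gene PHT1;1, the camalexin genes PAD3 and CYP71A13, PHO1 and the senescence marker SAG12 were among the 14 not listed.

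WRKY33, WRKY46 and WRKY53 also respond quickly to handling and stress, so a list of 14 rapid touch and handling genes is given beside them. Of these 14, 5 were listed as lower and 1 as higher, beside 3.08% and 4.17% of all protein-coding loci. The other 8, TCH2, TCH4, ZAT10, ZAT12, ERF104, CAF1A, CAF1B and CML38, were not listed. The lower ones were SZF2 (32.2% of the wild-type level), ERF105 (35.8%), SZF1 (37.5%), ERF6 (39.5%) and TCH3 (49.5%), and CYP94B3 was at 322.4%. The median log2 ratio of the 6 was -1.38. Their part in the ratios of the WRKY genes was not tested. Of 6 photosynthesis markers of leaves, 4 root, 3 seed and 4 flower markers, 0 were listed. Because the tables hold only selected transcripts, the levels of these markers could not be read and the tissue label was not checked further.

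The ratio of WRKY75 was shared by many loci of other kinds. Of 1255 other listed loci with at least 100 reads over both libraries, 88 had a log2 ratio inside the counting interval of WRKY75, 1 of them among the other 4 WRKY genes described. The 1255 include loci listed as higher, which cannot lie in that interval. The nearest, by absolute difference of log2 ratio over the 2 libraries, were AT4G38560, annotated as a phospholipase-like protein (-1.72, on 991 and 276 reads), RPA2 (AT2G24490), a subunit of replication protein A (-1.72, on 79 and 22 reads), AT1G51890 (-1.73, on 5591 and 1556 reads), the germin-like gene GLP9 (AT4G14630; -1.73, on 457 and 127 reads) and MMP (AT1G70170), a matrix metalloproteinase gene (-1.70, on 99 and 28 reads). With 2 libraries such likeness is likeness of 1 ratio.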

How the data were processed

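Polyadenylated leaf RNA was sequenced in 1 library per genotype, per the labels. Bowtie and the TAIR10 build are named in the submitters' processing notes, while the sources used here do not give the read counter, strand setting, filters or test. Per the file headers, the deposited tables hold 998 lower and 1360 higher transcript models with their read count and RPKM in each library, the log2 ratio between the libraries, and p-values with false discovery rates. A further deposited table without column headers lists ontology terms, with columns taken from their values as gene counts, p-values and adjusted p-values. The row without a gene identifier, with 0.103% of all wild-type reads and 0.0384% of all RNAi reads, was left out.

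Library totals behind the deposited RPKM were 41328980 reads for wild type and 38042482 for WRKY75RNAi, the median over rows of reads divided by RPKM and length. Each locus is given by its model with most reads. Read intervals are exact Poisson intervals and ratio intervals exact Clopper-Pearson intervals (scipy 1.17.1), at 95% and for counting error only. Coverage was checked for the ratio intervals alone, on simulated Poisson counts without selection of loci by ratio. Such counts hold the error that the intervals assume, so the check does not give the coverage for the selected loci. No test of genotype was made. The number of ranked models, 31475, is the one at which the deposited p-values and false discovery rates of 692 rows gave whole ranks (mean distance 0.00206, next best 0.111).

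Genes, transcripts and promoter windows were read by locus from RefSeq's TAIR10.1 annotation and sequence, and all coordinates are of that build; the deposited files hold none. Family groups come from WRKY domains and zinc fingers in translated coding sequences, with group II divided by a fixed list of names. TTGAC was searched on both strands. Transcripts were compared by exact stretches of 21 and 50 bases on both strands. The rule for named genes took the 5 loci, all other listed WRKY genes, listed members of the fixed lists and the 5 loci nearest WRKY75 in ratio. Members and lists were chosen with earlier results of these data known.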

Additional observations from a re-analysis of the deposited data

How the results depend on the processing

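The direction of each of the 5 WRKY ratios was kept under every setting tried, which is no finding. That direction was given by the choice of the loci, and a value added to both libraries cannot reverse a ratio. With 0.1 or 1 RPKM added to both libraries, all 5 log2 ratios stayed inside their counting intervals. With 5 RPKM added they were -1.30 for WRKY75, -1.73 for WRKY53, -0.90 for WRKY6, -1.46 for WRKY46 and -1.45 for WRKY33, as the addition pulls every ratio towards 0. Without library scaling, raw reads gave -1.93 for WRKY53, -1.28 for WRKY6, -1.65 for WRKY46 and -1.61 for WRKY33, and scaling to the reads of the listed models gave -1.89 for WRKY75, -1.99 for WRKY53, -1.33 for WRKY6, -1.70 for WRKY46 and -1.67 for WRKY33. The count of 15 lower WRKY loci became 8 where a log2 difference of 1.5 or more was asked for and 3 at 2. Both counts include WRKY71 with 0 reads in WRKY75RNAi. Against the floor of 3 reads WRKY71 was 3.99-fold lower, just short of a log2 difference of 2. The count was 14 with at least 50 reads, and 10 with 1 RPKM added and a 2-fold limit. The 1 higher locus became 0 with at least 50 reads and 0 with 1 RPKM added. Each locus of the 5 had 1 listed model, so summing models could not be tried. The spliced length and the count of transcript models, 18 lower, were chosen after seeing the data. No paired analysis was possible because there is 1 library per genotype, and for the same reason no library could be left out. Depth limits the WRKY loci with few reads, such as WRKY71, WRKY67, WRKY55 and WRKY72.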
